A study of Mus musculus with 6 samples.

Results

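Genes that make, take up or attach the long polyunsaturated fatty acids of photoreceptor membranes were followed in retinas of mice with Dicer1 deleted in rods. There are 9 of them, chosen by symbol, and all were found among the 22731 genes of the deposited table: the desaturases Fads2 and Fads1, the elongases Elovl5, Elovl2 and Elovl4, the transporter Mfsd2a, the receptor Adipor1, the acyl-CoA synthetase Acsl6 and the acyltransferase Lpcat1. The conditional knockout (cKO) retinas came from Dicer fl/fl mice that carried iCre75, a transgene that expresses Cre recombinase in rods. The control retinas came from Dicer fl/fl littermates without it, so the floxed alleles were common to both groups, and the Cre transgene and the loss of Dicer1 cannot be told apart. Every mouse was 4 weeks old and of the strain background Mixed C57BL/6J - SJL. Tissue was taken between 8 and 10 in the morning. Each group had 3 libraries, cKO replicates 2, 3 and 4 and control replicates 1, 2 and 3, and each library was made from pooled RNA of 4 mice.

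The discs of the rod outer segment hold more docosahexaenoic acid (DHA) than almost any other membrane of the body. Cells can build DHA from a shorter dietary precursor by alternating desaturation and elongation in the endoplasmic reticulum, or take it up ready made from blood, mainly as a lysophospholipid made in the liver. Before it enters a membrane, a fatty acid is activated to its CoA ester and joined to a lysophospholipid. Photoreceptors lengthen part of the chains further, to very long polyunsaturated acids that are found in few other tissues. Dicer1 cuts microRNA precursors into mature microRNAs, which pair through their seed (bases 2 to 8) with sites mostly in the 3′ untranslated region (UTR) of messenger RNAs.

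Seed matches to microRNAs known from retina were looked for in the 9 genes because the compared mice differ in the enzyme that makes these molecules. The microRNAs of the photoreceptor cluster on chromosome 6 and one known from pigment epithelium and retina are shown as annotated by RefSeq (GRCm38.p6), 5′ to 3′, with the seed in capitals.
miR-183-5p: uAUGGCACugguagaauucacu
miR-96-5p: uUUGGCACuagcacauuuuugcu
miR-182-5p: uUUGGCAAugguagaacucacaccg
miR-204-5p: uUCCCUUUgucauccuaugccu

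Of the 9 genes, Elovl2 alone held a match to each of the 3 cluster microRNAs in its longest annotated 3′ UTR (2913 bases, GENCODE M21, minus strand of chromosome 13). The matches, searched on the transcript strand and shown in capitals with 10 bases on each side, lie at UTR positions 1655, 1500 and 744. For miR-204-5p, which also had matches in Elovl2 and Fads2, the Elovl5 match (position 236 of 1711 bases) is shown, since it is the single match found in that gene.
Elovl2 site for miR-183-5p: ccgauguccuGUGCCAUgucugucauu
Elovl2 site for miR-96-5p: uguuccucgaGUGCCAAcggcggggcc
Elovl2 site for miR-182-5p: aaaaauguguUUGCCAAaucauaacuc
Elovl5 site for miR-204-5p: uagacuguggAAAGGGAauguucuugu

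The other 5 seeds searched were that of miR-204-5p, which miR-211-5p shares (site AAAGGGA), and those of miR-9-5p (ACCAAAG), miR-125b-5p (CUCAGGG), let-7a-5p (CUACCUC) and miR-181a-5p (UGAAUGU). Elovl2 held a match to 7 of the 8 seeds, Acsl6 to 4, Elovl4, Fads2 and Lpcat1 to 2 each, and Elovl5 and Fads1 to 1 each. In Fads2 the matches for miR-9-5p and miR-204-5p overlap, at UTR positions 625 and 628. Adipor1 (1693 bases of UTR) and Mfsd2a (391 bases) held none of the 8. Among 11048 tested genes with an annotated 3′ UTR, with a median length of 1241 bases, between 10.5% and 18.7% held a given site. The site for miR-96-5p was present in 3 of the 9 genes (Elovl2, Fads1 and Acsl6) and in 10.5% of all these UTRs, and that for miR-182-5p in Elovl2 alone and in 12.95%. Sites for miR-204-5p (16.7% of all UTRs), miR-9-5p (14.4%), miR-125b-5p (16.2%) and let-7a-5p (10.7%) were each present in 3 of the 9 as well. The site for miR-183-5p was present in 1 of the 9 and in 11.5% of all UTRs, and that for miR-181a-5p in 2 and in 18.7%. These shares are not matched for length. Apart from Mfsd2a, each of the 9 UTRs was longer than the median, from 1498 bases in Fads2 to 3559 in Acsl6. The share of UTRs with all 3 cluster sites was not counted. A match is only a stretch of letters, longer UTRs hold more of them by length alone, and no binding was measured here.

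Levels are given as RPKM, reads scaled to the length of the authors' gene model and to the size of the library, so that genes and libraries can be set side by side. Library depth, worked back from the steps of the RPKM values, was between 12336419 and 29007035 reads in genes for cKO and between 27204390 and 32934533 for control. Dicer1 itself was at 8.02, 7.06 and 7.90 RPKM in cKO, against 8.48, 8.77 and 8.33 RPKM in control. All cKO libraries were below all control libraries, and the difference did not pass (log2 fold change −0.15 ± 0.079 SE, limma adjusted p = 0.931). A gene-level value also counts reads of exons outside the floxed part and of cells that do not express Cre. The first principal component of the tested genes held 44.1% of their variance. It set cKO replicate 4 (20.5) and control replicate 3 (12.9) at one end and cKO replicate 2 (−17.5) and control replicate 2 (−9.84) at the other, so the main axis crossed the groups. In whole retina, fewer cells of a type and less RNA per cell cannot be told apart.

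None of the 9 genes passed the test over all genes, 8 of them overlapped between cKO and control retinas, and Adipor1 did not. Differences were tested with limma on log2(RPKM + 0.5) in the 12599 genes that averaged 1 RPKM or more, with Benjamini-Hochberg adjustment and a threshold of 0.05. All 9 genes were above the filter. The limma test called 0 of them, and 0.00794% of all tested genes (1 gene). Before adjustment, 1 of the 9 (Adipor1, higher in cKO) had a limma p under 0.05, beside 2.65% of all tested genes in that direction, and 0 of the 9 were lower, beside 3.06%. The median log2 fold change of the 9 was 0.029 and that of all tested genes −0.0050, with 5 of the 9 higher and 4 lower in mean log2 value in cKO. For 1 gene, Adipor1, all cKO values lay above all control values, beside 5.91% of all tested genes, and for none did they lie below, beside 5.78%.

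**Figure D1:**
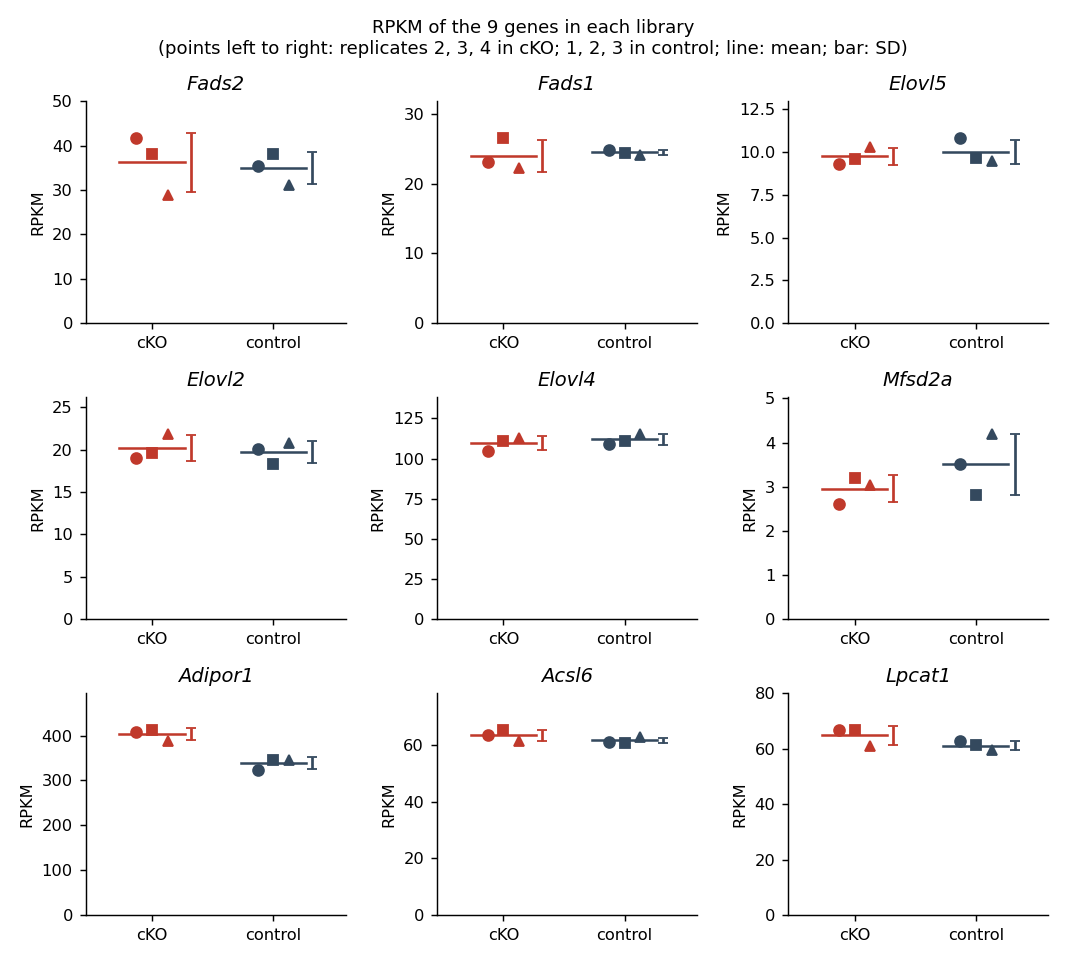
RPKM of each of the 9 genes in the 3 cKO libraries (left in each panel) and the 3 control libraries (right), with the mean as a line and the SD as a bar; axes start at 0. The groups overlap in 8 panels, and for Adipor1 the lowest cKO value, 388 RPKM, lies above the highest control value, 346 RPKM.

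Fads2 encodes the desaturase of the first step towards DHA. Its levels were 41.8, 38.0 and 28.9 RPKM in cKO replicates 2, 3 and 4, against 35.4, 38.2 and 31.0 RPKM in control replicates 1, 2 and 3. The cKO libraries held both the highest and the lowest value, so the groups overlapped fully. In the fit, the log2 fold change was 0.042 ± 0.15 (SE), with a 95% interval of the fold from 0.814 to 1.30 (limma adjusted p = 0.997). Its sign rested on single libraries, with −0.067 when cKO replicate 2 was left out, −0.00017 when cKO replicate 3 was and −0.038 when control replicate 3 was. Between libraries of 1 group Fads2 varied more than most genes: its residual SD of 0.219 on the log2 scale was larger than that of 83.5% of tested genes, whose median was 0.128.

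Fads1, the desaturase of the later step, lies 81141 bases from Fads2 on chromosome 19 (10182888 to 10196877, plus strand; Fads2 at 10062765 to 10101746, minus strand; GENCODE M21, GRCm38). It was measured at 23.1, 26.6 and 22.3 RPKM in cKO, against 24.9, 24.5 and 24.1 RPKM in control. All 3 control values fell inside the cKO range. A log2 fold change of −0.032 ± 0.090 (SE) was fitted, with a fold between 0.847 and 1.13 (95% interval, limma adjusted p = 0.997), and it was 0.018 when cKO replicate 4 was left out. Fads2 stood above Fads1 in every library, by 1.51 ± 0.264 times in cKO and 1.42 ± 0.137 times in control (SD, n = 3 each; exact two-sided permutation p = 0.6). With 3 against 3 libraries this test cannot go below 0.1. In reads, Fads2 lay below Fads1 in every library, for example at 1544 against 1960 in cKO replicate 2 and 1897 against 3379 in control replicate 3. Which gene stands higher thus depends on the model lengths divided by, 1508 bp for Fads2 and 3458 bp for Fads1.

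Of the 3 elongases, Elovl5 acts on the earlier intermediates. It was at 9.33, 9.62 and 10.3 RPKM in cKO, against 10.8, 9.69 and 9.51 RPKM in control, with groups that overlap. Its log2 fold change was −0.035 ± 0.084 (SE), and the 95% interval of the fold ran from 0.853 to 1.12 (limma adjusted p = 0.997). Leaving out control replicate 1 gave 0.021.

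Elovl2 extends the chain to the length from which DHA is made, and mice without it have little DHA of their own making. Elovl2, the gene with the 3 cluster matches shown above, was at 19.0, 19.5 and 21.9 RPKM in cKO, against 20.1, 18.3 and 20.7 RPKM in control. The highest value was in cKO replicate 4 and the lowest in control replicate 2, and the groups overlapped. A log2 fold change of 0.029 ± 0.091 (SE) corresponds to a fold between 0.882 and 1.18 (95% interval, limma adjusted p = 0.997). Leaving out cKO replicate 4 gave −0.030 and leaving out control replicate 2 gave −0.022, so its direction rested on single libraries. This interval is not adjusted over genes and does not mark what 3 libraries a group could detect. Adipor1, at a fold of 1.19 with an SE of 0.092, did not pass either.

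Elovl4 builds the very long chains, and its mutation in humans causes a dominant macular dystrophy. It was the most abundant of the 3, at 104, 111 and 113 RPKM in cKO, against 109, 111 and 115 RPKM in control. Its values overlapped almost fully, and the log2 fold change was −0.033 ± 0.085 (SE), with a 95% interval of the fold from 0.853 to 1.12 (limma adjusted p = 0.997). Leaving out cKO replicate 2 gave −0.00033 and leaving out control replicate 3 gave −0.011. Elovl4 was also among the steadiest genes: 5.39% of tested genes had a smaller residual SD than its 0.0501. Within a library its level was 5.45 ± 0.275 times that of Elovl2 in cKO and 5.69 ± 0.339 times in control (SD, n = 3 each; exact two-sided permutation p = 0.5).

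**Figure D2:**
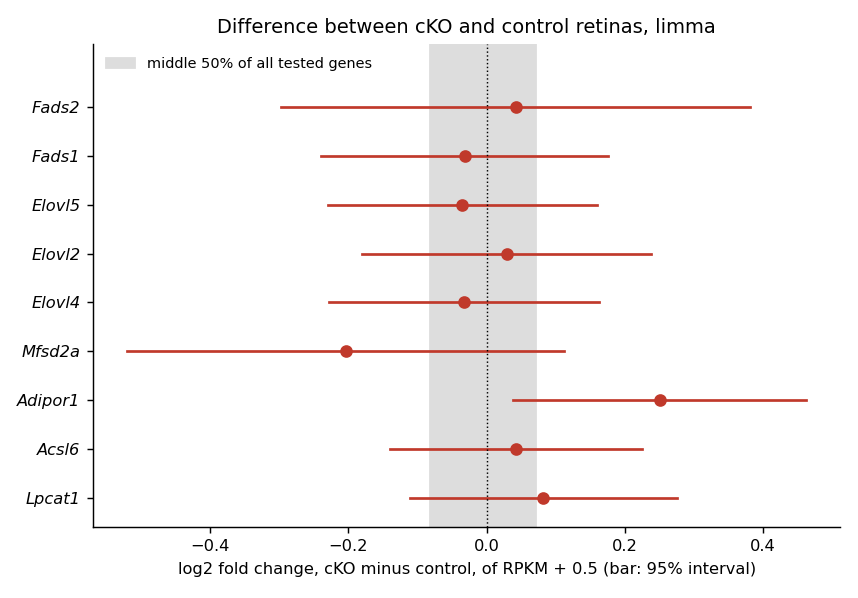
Log2 fold change, cKO minus control, of log2(RPKM + 0.5) for each gene with its 95% limma interval; grey marks the middle 50% of all tested genes. The intervals of 8 genes include 0, and that of Adipor1 runs from 0.038 to 0.46 before any adjustment over genes.

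A pair of the genes governs entry and retention of DHA. Mfsd2a, which carries DHA as a lysophospholipid across the endothelium of brain vessels and is expressed in pigment epithelium, was the least abundant of the 9. It was at 2.62, 3.20 and 3.04 RPKM in cKO (138, 247 and 99 reads), against 3.51, 2.82 and 4.20 RPKM in control (260, 236 and 366 reads). The cKO mean was 84.2% of the control mean, and the groups overlapped. Its log2 fold change, −0.20 ± 0.14 (SE), missed the threshold (limma adjusted p = 0.965), and the 95% interval of the fold, from 0.697 to 1.08, is wide. This value rests on single libraries: leaving out control replicate 3 gave −0.082, leaving out cKO replicate 2 gave −0.13 and leaving out control replicate 2 gave −0.33.

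Adipor1 encodes a receptor of adiponectin, and in mice its loss depletes DHA from the retina and leads to photoreceptor degeneration. It was the gene that differed most. The levels were 408, 414 and 388 RPKM in cKO (20258, 30002 and 11878 reads), against 324, 346 and 346 RPKM in control (22584, 27314 and 28399 reads). All cKO libraries were above all control libraries, and the cKO mean was 119% of the control mean. The log2 fold change was 0.25 ± 0.092 (SE), with an unadjusted p of 0.0263 and a limma adjusted p of 0.848, so it did not pass. The 95% interval of the fold ran from 1.03 to 1.38, and the permutation test over libraries (exact, two-sided) gave 0.1, its smallest possible p. By fold alone, 2.60% of tested genes had a higher log2 fold change. With the library distributions forced alike by quantile normalization the log2 fold change was 0.12 (adjusted p = 0.959). Over all 17 alternatives the adjusted p lay between 0.221 and 1.00, and with single libraries left out the log2 fold change lay between 0.22 and 0.28.

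The sister receptor gene Adipor2 was at 18.7, 20.7 and 20.2 RPKM in cKO, against 19.5, 18.6 and 22.1 RPKM in control (log2 fold change −0.013 ± 0.093 SE, limma adjusted p = 0.997). The ratio of Adipor1 to Adipor2 within a library was 20.4 ± 1.36 in cKO and 17.0 ± 1.52 in control (SD, n = 3 each; exact two-sided permutation p = 0.1). Adipor1 alone already separated the groups, and Adipor2 was added after its values were seen. The ratio therefore repeats the Adipor1 difference and is no separate evidence for it. The 3 tested genes whose profile over the 6 libraries lay nearest to that of Adipor1 were Telo2, a cofactor of kinases of the DNA damage response, 2410002I01Rik and the anion exchanger gene Slc4a3. Their root mean square differences from it, in centred log2(RPKM + 0.5), were 0.020, 0.021 and 0.031, beside a median of 0.184 over all tested genes. Each was higher in all cKO than in all control libraries, as nearness to Adipor1 requires, and none passed (limma adjusted p = 0.848, 0.848 and 0.758).

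The last pair attaches fatty acids to membrane lipids. Acsl6, which activates DHA to its CoA ester in neurons, was at 63.6, 65.6 and 61.7 RPKM in cKO, against 61.4, 61.0 and 62.9 RPKM in control. A single control value lay inside the cKO range and the rest just below it. Its log2 fold change was 0.043 ± 0.079 (SE), with a fold between 0.908 and 1.17 (95% interval, limma adjusted p = 0.997). Leaving out cKO replicate 3 gave 0.021 and leaving out cKO replicate 4 gave 0.065. The share of tested genes with a smaller residual SD was 1.48% for Acsl6, at 0.0351. An antisense transcript, Gm12224, shares 202 bases of annotated exon with it, and reads carry no strand.

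Lpcat1 turns lysophosphatidylcholine into phosphatidylcholine, and mice without it lose their photoreceptors. It was at 66.6, 66.9 and 61.0 RPKM in cKO, against 62.7, 61.4 and 59.4 RPKM in control. Replicate 4 of the cKO group lay within the control range and the other cKO libraries above it. The log2 fold change was 0.082 ± 0.084 (SE), and the 95% interval of the fold ran from 0.926 to 1.21 (limma adjusted p = 0.995). Leaving out cKO replicate 4 gave 0.13.

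The order of the 9 levels was nearly the same in both groups. Adipor1 led at 403 ± 13.5 RPKM in cKO and 339 ± 12.8 RPKM in control (SD, n = 3 each), above 99.6% of tested genes. Elovl4 followed at 109 ± 4.35 RPKM in cKO and 112 ± 3.23 RPKM in control. Next came Lpcat1, at 64.8 ± 3.34 RPKM in cKO and 61.1 ± 1.68 RPKM in control, and Acsl6, at 63.7 ± 1.93 RPKM in cKO and 61.8 ± 1.03 RPKM in control. This pair overlapped in both groups and changed places between them, so they do not differ beyond their spread. Fads2 (36.2 ± 6.597 RPKM in cKO, 34.9 ± 3.61 RPKM in control), Fads1 (24.0 ± 2.27 RPKM in cKO, 24.5 ± 0.373 RPKM in control) and Elovl2 (20.1 ± 1.52 RPKM in cKO, 19.7 ± 1.26 RPKM in control) came after. Elovl5 was at 9.75 ± 0.508 RPKM in cKO and 10.0 ± 0.722 RPKM in control, near the median tested gene at 9.14 RPKM. Mfsd2a closed the order at 2.96 ± 0.303 RPKM in cKO and 3.51 ± 0.693 RPKM in control. Apart from Lpcat1 and Acsl6, no neighbours in the order overlapped in either group.

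**Figure D3:**
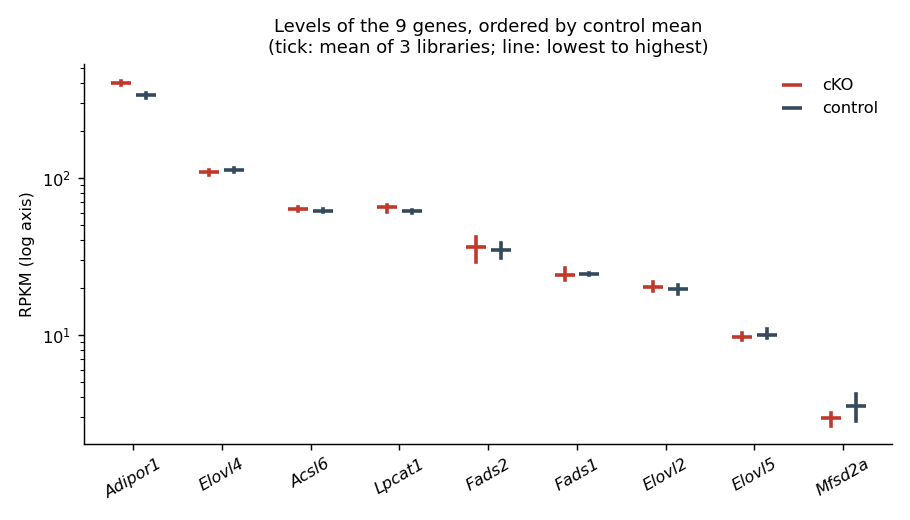
Level of each gene in RPKM on a log axis, ordered by control mean, with the mean as a tick and the range over 3 libraries as a line, cKO left of control. Levels run from about 3 RPKM for Mfsd2a (2.96 in cKO, 3.51 in control) to 403 RPKM in cKO and 339 RPKM in control for Adipor1.

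These levels depend on the length the authors divided by. The steps of the RPKM values gave model lengths of 3837 bp for Elovl2, 2781 bp for Elovl5, 3458 bp for Fads1 and 2150 bp for Mfsd2a, each within 3 bp of an annotated transcript. The model of Lpcat1, 1605 bp, equals its annotated coding length and is shorter than its longest protein-coding transcript of 3675 bp. Fads2 had 1508 bp against an annotated 3150 bp, Adipor1 2024 bp against 3446 bp and Acsl6 3074 bp against 5807 bp. Elovl4 had 3054 bp, more than its annotated 3001 bp. Fold changes between groups do not depend on these lengths.

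Part of the spread among libraries crossed the groups. Fads2 was highest in cKO replicate 2, at 0.24 above its mean on the log2 scale, and lowest in cKO replicate 4 and control replicate 3, at −0.28 and −0.18. Elovl2 had its largest positive deviations in cKO replicate 4 and control replicate 3, 0.13 and 0.059, which are also those at one end of the first principal component. Pigment epithelium markers, of which all 12 were in the table, 11 above the filter and none at 0, summed to 599, 569 and 476 RPKM in cKO replicates 2, 3 and 4, against 519, 526 and 479 RPKM in control replicates 1, 2 and 3. The sum was thus highest and lowest in the libraries where Fads2 was highest and lowest, and its part in the Fads2 values was not tested. Of the 11 above the filter, 6 were higher and 5 lower in mean log2 value in cKO, and their median log2 fold change was 0.145, the highest of the marker lists. Among them the visual cycle gene Rpe65 had a log2 fold change of 0.25 and the pigment cell gene Mlana one of −0.31 (limma adjusted p = 0.906 and 0.994), both picked after their values were seen. Nor did these genes share a profile over libraries. In control replicate 2 Rpe65 was at its lowest, 8.05 RPKM, and Mlana at its highest, 20.8 RPKM. Adipor1 was lowest among the cKO libraries in replicate 4, where the sum was lowest too. Among the control libraries Adipor1 was lowest in replicate 1, at 324 RPKM, while the sum was lowest in replicate 3. The part of pigment epithelium in the Adipor1 values was not tested. Endothelial markers, 10 of 10 in the table and none at 0, summed to between 197 and 217 RPKM in cKO and between 198 and 205 RPKM in control. Of these 10, 4 were higher and 6 lower in mean log2 value in cKO, with a median log2 fold change of −0.012. For 2 of them all cKO values lay below all control values, beside 5.78% of all tested genes, and for 0 above, beside 5.91%. The part of endothelium in the Mfsd2a values was not tested.

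**Figure D4:**
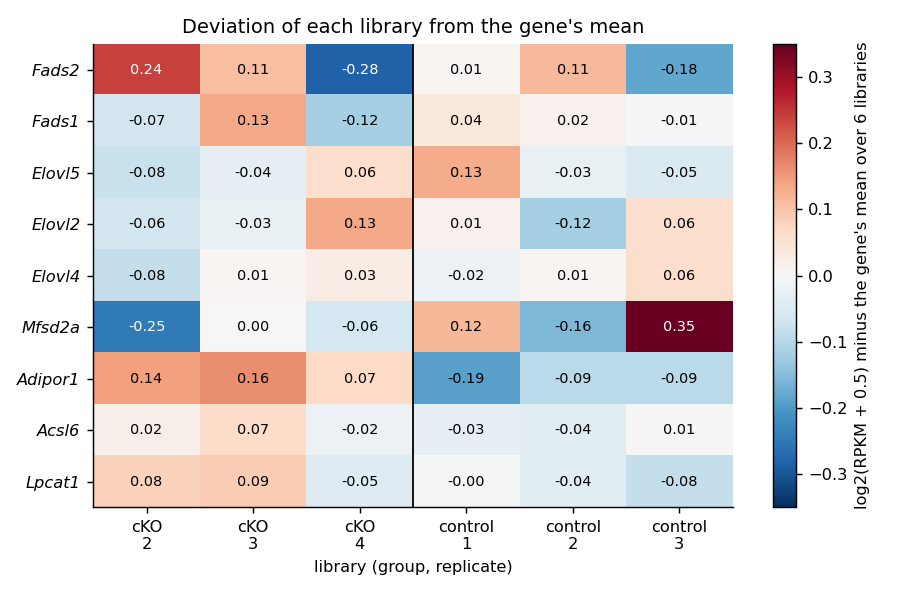
Deviation of each library (columns, cKO left of the line and control right) from the gene's own mean over the 6 libraries, in log2(RPKM + 0.5), for the 9 genes (rows). The Adipor1 row is positive in all cKO and negative in all control libraries, while the Fads2 row runs from 0.24 in cKO replicate 2 to −0.28 in cKO replicate 4.

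Markers of the other cell types were compared as lists, all of whose genes were in the table and none at 0. Of 10 rod markers, 4 were higher and 6 lower in mean log2 value in cKO, with a median log2 fold change of −0.047. Summed levels of 8 cone markers were between 966 and 1324 RPKM in cKO and between 922 and 1265 RPKM in control. By gene, 7 cone markers were higher and 1 lower in mean log2 value in cKO, with a median log2 fold change of 0.060. Müller glia markers (10 genes) summed to 2229 to 2327 RPKM in cKO and 2240 to 2536 RPKM in control. Oligodendrocyte markers (6 genes) summed to 20.1 to 21.6 RPKM in cKO and 18.7 to 21.2 RPKM in control, and microglia markers (6 genes) to 13.2 to 17.0 RPKM in cKO and 15.1 to 16.4 RPKM in control. In mean log2 value, 5 Müller glia markers were higher and 5 lower in cKO. The counts were 2 and 1 for tested oligodendrocyte markers, and 2 and 2 for tested microglia markers. Lens markers (7 genes) varied most, from 201 to 2421 RPKM in cKO and from 345 to 3264 RPKM in control. All 7 were lower and 0 higher in mean log2 value in cKO, with a median log2 fold change of −0.41. The part of lens in any value given here was not tested. None of the marker genes tested passed in either direction.

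Other genes of fatty acid metabolism were taken as 7 lists of 133 genes, of which 132 were in the table and 112 above the filter. None passed in either direction. Before adjustment, 4 were higher and 4 lower in cKO at a limma p under 0.05, together 7.14% beside 5.71% of all tested genes. Groups did not overlap for 8 higher and 8 lower, together 14.3% beside 11.7%. The median log2 fold change of the 112 was 0.013.

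Among the other enzymes of elongation and desaturation, 16 tested, 10 were higher and 6 lower in mean log2 value, with a median of 0.013 and none at an unadjusted p under 0.05. Tecr, the reductase that completes each elongation cycle, was the most abundant, at 163 ± 15.3 RPKM in cKO and 161 ± 21.9 RPKM in control (SD, n = 3 each). Hsd17b12, which reduces the intermediate of the same cycle, was at 51.2 ± 8.89 RPKM in cKO and 46.1 ± 2.81 RPKM in control, and Elovl6, which lengthens saturated chains, at 9.65 ± 0.468 RPKM in cKO and 10.2 ± 0.284 RPKM in control. The electron carrier gene Cyb5 was at 19.9 ± 3.98 RPKM in cKO and 22.03 ± 3.65 RPKM in control. The limma adjusted p of these 4 lay at or above 0.995.

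Of 7 tested genes for acyl-CoA synthetases and fatty acid transport proteins, 2 had all cKO values above all control values. The share over all tested genes was 5.91%. For 0 of the 7 they all lay below, beside 5.78% of all tested genes. Acsl1, a synthetase of general long-chain metabolism, was at 24.8, 25.9 and 27.5 RPKM in cKO, against 22.9, 20.2 and 21.9 RPKM in control (log2 fold change 0.26 ± 0.086 SE, limma adjusted p = 0.848). Slc27a1, a fatty acid transport protein with synthetase activity, was at 45.1, 43.4 and 43.9 RPKM in cKO, against 34.7, 40.8 and 33.7 RPKM in control (0.28 ± 0.096 SE, limma adjusted p = 0.848). Both had an unadjusted limma p under 0.05 (0.0162 and 0.0196), beside 2.65% of all tested genes in that direction, and did not pass. Acsl3, the most abundant of the 7 tested by its mean over the 6 libraries, was at 42.3 ± 4.34 RPKM in cKO and 46.4 ± 4.33 RPKM in control, and Slc27a3, of the same family as Slc27a1, at 2.59 ± 0.101 RPKM in cKO and 2.86 ± 0.158 RPKM in control. Neither passed (limma adjusted p = 0.984 and 0.964). The median of the list was 0.0019.

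Uptake and binding genes, 13 tested, had a median log2 fold change of −0.020 and none at an unadjusted p under 0.05. Fabp12, a retinal fatty acid binding protein gene and the most abundant, was at 33.7 ± 5.51 RPKM in cKO and 37.9 ± 4.77 RPKM in control. Lpl, which frees fatty acids from lipoproteins, was at 3.63 ± 0.0874 RPKM in cKO and 3.30 ± 0.157 RPKM in control, and Fabp4, the fatty acid binding protein of fat cells, at 3.53 ± 1.023 RPKM in cKO and 2.79 ± 0.441 RPKM in control. The limma adjusted p of these 3 was at or above 0.960.

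Of the 25 tested genes of phospholipid acylation and phospholipase A2, 18 were higher and 7 lower in mean log2 value in cKO, with a median of 0.075. Agpat3, an acyltransferase that introduces DHA into new phospholipids, was the most abundant, at 322 ± 31.9 RPKM in cKO and 315 ± 23.2 RPKM in control (limma adjusted p = 0.997). Lclat1, a lysocardiolipin acyltransferase gene, was at 10.9, 12.6 and 12.1 RPKM in cKO, against 9.50, 9.99 and 10.6 RPKM in control (log2 fold change 0.23 ± 0.086 SE, limma adjusted p = 0.848). Lpcat3 and Lpcat4, relatives of Lpcat1 by activity, went opposite ways in mean. Lpcat3 was at 5.59 ± 0.302 RPKM in cKO and 6.38 ± 0.340 RPKM in control (limma adjusted p = 0.883). Lpcat4 was at 12.7 ± 1.53 RPKM in cKO and 10.9 ± 0.625 RPKM in control (limma adjusted p = 0.906).

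Peroxisomes shorten the last intermediate to DHA. Of their 18 tested genes, 9 were higher and 9 lower in mean log2 value, with a median of −0.0035. Acaa1a, a thiolase gene and the most abundant, was at 50.1 ± 8.11 RPKM in cKO and 47.0 ± 4.35 RPKM in control. Pex11a, which takes part in peroxisome division, was at 12.9, 14.2 and 13.4 RPKM in cKO, against 16.0, 15.4 and 15.0 RPKM in control (log2 fold change −0.19 ± 0.077 SE, limma adjusted p = 0.865). Ehhadh, the bifunctional enzyme of peroxisomal oxidation, was at 1.87 ± 0.360 RPKM in cKO and 1.56 ± 0.183 RPKM in control, and Pex14, part of the protein import machinery, at 33.7 ± 6.91 RPKM in cKO and 28.8 ± 6.45 RPKM in control. Neither passed (limma adjusted p = 0.965 and 0.984).

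The regulators and first enzymes of fatty acid synthesis divided evenly, 10 higher and 10 lower of 20 tested, with a median log2 fold change of 0.013. Nr1h2, a sterol-sensing nuclear receptor gene, was the most abundant, at 61.7 ± 3.86 RPKM in cKO and 59.2 ± 3.25 RPKM in control. Ppara, a nuclear receptor that responds to fatty acids, was at 3.69 ± 0.292 RPKM in cKO and 4.32 ± 0.138 RPKM in control. Acaca, which makes the building block of chain elongation, was at 2.63 ± 0.152 RPKM in cKO and 3.09 ± 0.112 RPKM in control, and the energy sensor kinase gene Prkaa1 at 3.41 ± 0.166 RPKM in cKO and 3.92 ± 0.233 RPKM in control. For each of these last 3 all cKO values lay below all control values, with a limma adjusted p between 0.871 and 0.883. The cKO libraries were all above the control libraries for Scap, which escorts the sterol-regulated transcription factors, and for the nuclear receptor gene Ppard, both named after their values were seen (log2 fold change 0.18 and 0.19, limma adjusted p = 0.889 and 0.883). Thus groups did not overlap for 2 higher and 3 lower genes of the 20, beside 5.91% and 5.78% of all tested genes.

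Of 13 tested genes for flippases and lipid transport in outer segments, 7 were higher and 6 lower in mean log2 value, with a median of 0.0088. Pitpnm3, a relative of the fly lipid transfer gene rdgB, was at 121, 115 and 114 RPKM in cKO, against 96.3, 103 and 78.0 RPKM in control (log2 fold change 0.34 ± 0.12 SE, limma adjusted p = 0.848). Pitpnm1, of the same family and the most abundant, was at 321 ± 22.3 RPKM in cKO and 270.0 ± 31.6 RPKM in control (limma adjusted p = 0.894). Abca1, the cholesterol exporter gene, was at 1.42, 1.33 and 1.11 RPKM in cKO, against 1.84, 1.94 and 1.46 RPKM in control (−0.33 ± 0.12 SE, limma adjusted p = 0.848).

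**Figure D5:**
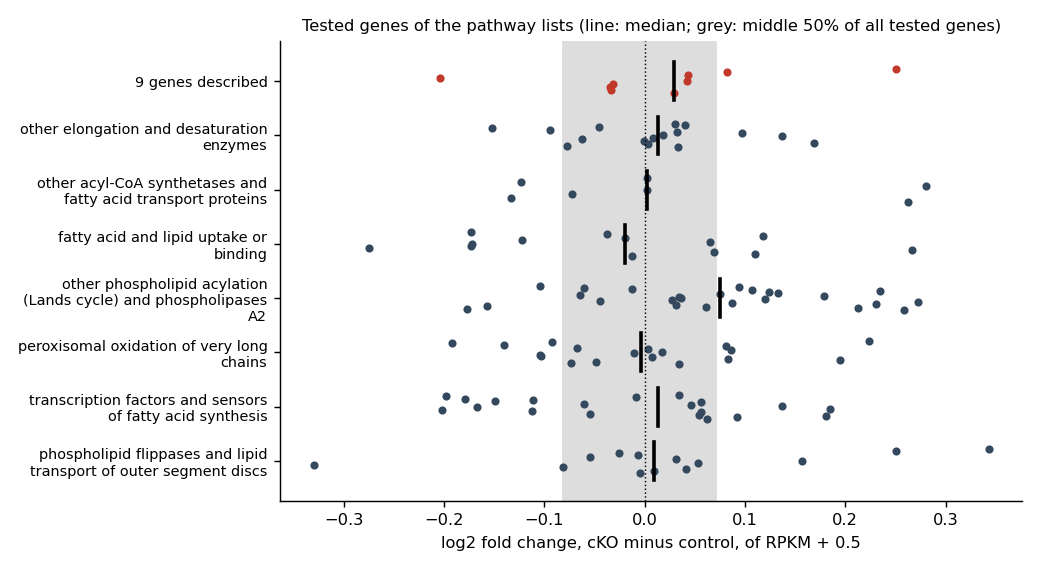
Log2 fold change, cKO minus control, of every tested gene (points) of the 9 genes and of the 7 other lists (rows), with each list's median as a line and the middle 50% of all tested genes in grey. Medians lie between −0.020 and 0.075, and no point stands for a gene that passed adjustment.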

How the data were processed

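The authors deposited RPKM values per gene and library with 5 decimals. Their processing notes (the submitters' own) list the tools GSNAP and HTSeq and the build mm9. For versions, annotation and length model, nothing is stated in the labels. Per the labels' protocols, each library came from RNA pooled from 4 mice, and cDNA was made from poly(A) RNA with random primers and no strand mark. P-values measure the spread between such pools.

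Values were used as deposited. limma 3.58.1 (R 4.3.3) with a variance trend was run on log2(RPKM + 0.5) for genes averaging 1 RPKM or more; fold changes are on that scale. RPKM is not a count, so reads (1 read is the step of a gene's values) were worked back only for depth, model lengths and 1 alternative; 19137 of 19140 genes above 0 lay on whole reads within the rounding of the values. Both steps were tested on simulated data. Coordinates and UTRs are from GENCODE M21 (GRCm38), not the authors' build.

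Besides the 9 genes, the text names Dicer1, each list's most abundant gene, its 3 smallest p and the 3 genes nearest to Adipor1; Adipor2 was added after its values were seen. The same rule covers marker genes, but those lists are given as sums or counts, and 1 marker is not reported here. Members, lists and tests were chosen with earlier results of these data known. The alternatives were 15 planned settings and 2 chosen after seeing the data.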

Additional observations from a re-analysis of the deposited data

How the results depend on the processing

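In all 17 alternatives 0 of the 9 genes passed, and Elovl4, Mfsd2a, Acsl6, Lpcat1 and Adipor1 kept the sign of their log2 fold change (Mfsd2a is below the filter of 5 RPKM, so 16 for it), though Elovl4 came to −0.00033 without cKO replicate 2. The other 4 turned sign when single libraries were left out: Elovl2 lay between −0.030 and 0.069, Fads1 between −0.11 and 0.018, Fads2 between −0.067 and 0.19 and Elovl5 between −0.074 and 0.021. The median of the 9 lay between −0.022 and 0.039. With the libraries numbered 2 and 3, Elovl2 was at −0.016 and Fads1 at 0.029, with or without the replicate block. Without cKO replicate 4 and control replicate 3 together, chosen after seeing the data, Fads1 was at 0.0071.

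Over all genes, 1 passed as higher and 0 as lower. No filter gave 2 lower, a filter of 5 RPKM 2 higher, centred medians 3 higher, no variance trend 2 higher, the fit without the 2 outer libraries 1 lower, and voom on recovered reads, also added later, 2 higher and 1 lower. The fit with the replicate block called 86 higher and 106 lower on 4 libraries, and the same 4 libraries without the block gave 1 higher and 0 lower. A group term and a block term on 4 libraries leave little from which to estimate a gene's spread. The counts with the block are therefore not read as changed genes. Deviations of same-numbered libraries correlated over genes at 0.47 for number 2 and −0.052 for number 3. Whether same-numbered libraries share more than a number was not tested. The cause of the differences between settings was not tested. Depth limits Mfsd2a most, with 99 reads in cKO replicate 4.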
